A study of Rattus norvegicus with 26 samples.

Results

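Astrocytes are the glial cells that supply neurons, take up transmitter and potassium and line the blood vessels of the brain, and 6 genes commonly used to recognise them were followed here across rat cortical cultures: Gfap, Aqp4, Aldh1l1, Acsbg1, Aldh1a1 and Fgfr3. The genes were taken by their annotated symbols from the array's probe annotation and are 6 of the 14217 genes that the array measured. No expression value entered that choice. They are read by 9 probe sets, of which Aqp4 has 3, Fgfr3 has 2 and the other members have 1 each, and where a gene has several, its main value comes from the one that averages highest across the 26 arrays. A probe set is a group of short array probes whose signals are summarised into 1 value.

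RNA came from primary cultures grown from the cerebral cortex of rat pups at postnatal day 1, and it was hybridised to 26 Affymetrix arrays, with no treatment or mutation named for any group. The neuronal, astrocytic, oligodendrocytic and microglial cultures have 4 biological replicates each. Mixtures of RNA with 2 replicates each make up the rest. NA1, NA2 and NA3 hold astrocytic RNA at fractions of 0.75, 0.5 and 0.25 with neuronal RNA as the remainder. NAO holds 0.5 neuronal, 0.25 astrocytic and 0.25 oligodendrocytic RNA, and NAOM holds 0.5 neuronal, 0.2 astrocytic, 0.2 oligodendrocytic and 0.1 microglial RNA. All mixtures numbered 1 were blended from neuron replicate 1 and astrocyte replicate 1, and all mixtures numbered 2 from neuron replicate 2 and astrocyte replicate 4. The labels do not give the strain, the days in culture, the purification steps or whether pups were pooled, so the p-values measure the spread between these arrays, which may be partly technical. Microglia replicate 4 carries a description as a mixture although its title and cell type name a microglial culture, and it was kept as a culture.

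The neuronal, oligodendrocyte and microglial cultures carried the markers of their labels. The mean log2 value of 12 neuronal markers lay between 10.14 and 10.49 on the neuronal arrays and at or below 6.72 elsewhere in the cultures. The mean of 9 oligodendrocyte markers lay between 9.09 and 11.47 on the oligodendrocyte arrays, and that of 10 microglial markers between 10.36 and 11.07 on the microglial arrays. The oligodendrocyte arrays also carried the microglial list at 8.08 to 9.21, and the microglial arrays the oligodendrocyte list at 7.03 to 8.72 and an oligodendrocyte precursor list of 5 genes at 7.12 to 8.11. The only astrocyte markers among these lists were the 6 members themselves, so the astrocyte label had no separate check in this comparison. Other astrocyte genes are counted further below. The members averaged 9.78 to 10.85 on the astrocyte arrays. Those arrays also carried a fibroblast and meningeal list at 6.64 to 9.28 and a pericyte and smooth muscle list at 7.24 to 8.59. An ependymal list lay at 4.85 to 7.625 there and the oligodendrocyte list at 5.14 to 6.73. The median probe set of a culture array had a log2 value of 5.25 to 5.31 (mixtures 5.33 to 5.41), and a value below that median is close to the array's background. A fold between cultures whose lower member lies there understates the change. The number of arrays limits the precision.

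The members cover different parts of astrocyte biology. Gfap is the glial fibrillary acidic protein, an intermediate filament of the astrocyte cytoskeleton that increases in reactive glia. Aqp4 is the water channel of the astrocyte endfeet around vessels, where the dystrophin complex anchors it. Aldh1l1 is a folate enzyme that oxidises formyltetrahydrofolate, Acsbg1 activates long-chain fatty acids by joining them to coenzyme A, and Aldh1a1 makes retinoic acid from retinal. Fgfr3 is a receptor tyrosine kinase for fibroblast growth factors that marks radial glia, astrocyte precursors and astrocytes.

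The promoter sequences of 3 members are shown because Gfap and Aqp4 had the most similar profiles among the members over the culture arrays, while Acsbg1 had the smallest range of culture means and alone carries a STAT-type motif. All 6 members matched the RefSeq promoter table (GRCr8), which holds 7 entries for them because Aqp4 has 2 start sites. Each line gives the 250 bases before the annotated start, 5′ to 3′ on the gene's strand, and capitals mark matched motifs. The Gfap stretch is chr10:88361662-88361911, the stretch before the first-listed Aqp4 start is chr18:6798843-6799092, and the Acsbg1 stretch is chr8:63943279-63943528, all on the minus strand.
Gfap: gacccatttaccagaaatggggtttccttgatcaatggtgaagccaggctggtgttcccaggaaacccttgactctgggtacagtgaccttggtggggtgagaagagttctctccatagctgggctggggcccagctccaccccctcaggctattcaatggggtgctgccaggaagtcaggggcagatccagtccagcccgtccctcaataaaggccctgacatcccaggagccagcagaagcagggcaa
Aqp4: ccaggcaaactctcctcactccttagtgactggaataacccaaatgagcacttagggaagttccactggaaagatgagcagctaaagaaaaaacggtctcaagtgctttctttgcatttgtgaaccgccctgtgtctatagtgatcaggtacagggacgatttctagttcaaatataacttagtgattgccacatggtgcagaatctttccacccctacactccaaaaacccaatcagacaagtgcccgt
Acsbg1: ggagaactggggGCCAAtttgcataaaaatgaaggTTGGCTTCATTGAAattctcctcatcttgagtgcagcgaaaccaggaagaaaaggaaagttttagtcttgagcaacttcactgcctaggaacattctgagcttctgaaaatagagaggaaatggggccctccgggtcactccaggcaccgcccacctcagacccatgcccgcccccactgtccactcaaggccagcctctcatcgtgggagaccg
The search covered both strands for TTCNNNGAA, bound by STAT factors that act on Gfap during astrocyte formation, for the nuclear factor I core TTGGC, for the SOX motif ACAATG and for the AP-1 motif TGANTCA. Acsbg1 had the STAT motif as TTCATTGAA, 210 bases before its start, and the core at 238 bases (as GCCAA, on the other strand) and 215 bases; the second core and the STAT motif do not overlap. Fgfr3 had 1 such core, 85 bases before its start. The other 5 entries, those of Gfap, Aqp4, Aldh1l1 and Aldh1a1, held none of the 4 motifs, and ACAATG and TGANTCA were found in none of the 7. Among 33469 rat promoters of the same length, 7.7% held TTCNNNGAA, 40.3% TTGGC, 11.1% ACAATG and 6.3% TGANTCA. These are letter matches in a short window and say nothing of binding.

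Gfap was high in astrocytes and also in neuronal and oligodendrocyte cultures. Its log2 value in astrocyte replicates 1 to 4 was 13.73, 13.35, 13.37 and 12.04, and in the neuronal replicates 10.37, 11.34, 12.49 and 12.38. The oligodendrocyte replicates read 11.82, 10.63, 8.78 and 9.04, and the microglial ones 8.26, 7.54, 6.57 and 8.63. Neuron replicates 3 and 4 thus lay above astrocyte replicate 4, and every microglial array lay below every oligodendrocyte array. The astrocyte mean of 13.12 ± 0.74 (SD, n = 4) exceeded the oligodendrocyte mean of 10.07 ± 1.43 by 3.05 ± 0.67 (SE; limma, adjusted p 0.00202), an 8.30-fold difference. It exceeded the microglial mean of 7.75 ± 0.91 by 5.37 ± 0.67 (adjusted p 1.14e-05). The difference of 1.47 ± 0.67 from the neuronal mean of 11.65 ± 0.99 did not pass the test (adjusted p 0.0901), and it passed without astrocyte replicate 4 at 1.83 (adjusted p 0.0435).
Below the astrocytes, the neuronal level passed against microglia, at 3.90 ± 0.67 (adjusted p 0.00014), as did the oligodendrocyte level, at 2.32 ± 0.67 (adjusted p 0.0177). Without oligodendrocyte replicate 1 the latter was 1.73 and no longer passed (adjusted p 0.0615), and without microglia replicate 3 it was 1.92 (adjusted p 0.0656). Neurons and oligodendrocytes did not differ beyond the test, at 1.58 ± 0.67 (adjusted p 0.0733), although without oligodendrocyte replicate 1 this was 2.16 and passed (adjusted p 0.0115), as did 2.00 without neuron replicate 1 (adjusted p 0.0304). Gfap was therefore ordered astrocyte, neuron, oligodendrocyte and microglia, and the test separated neither astrocytes from neurons nor neurons from oligodendrocytes.

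**Figure D1:**
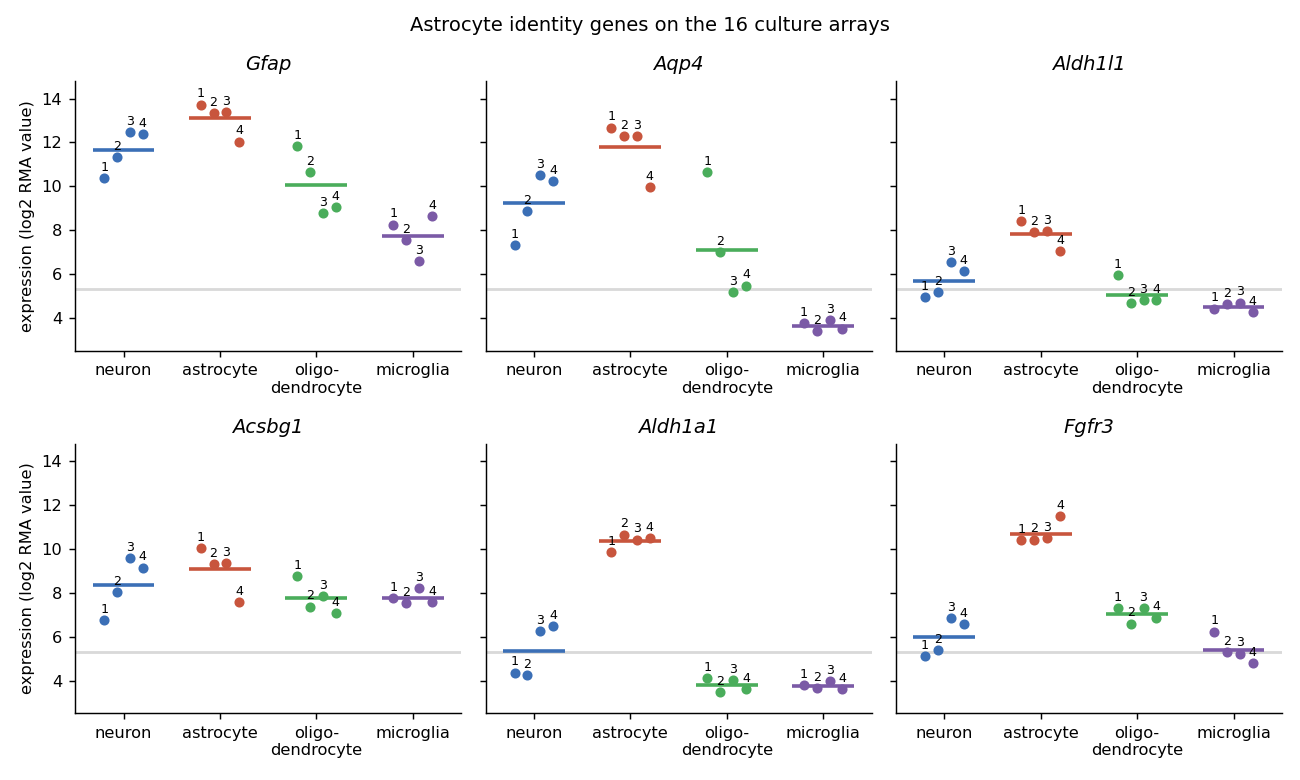
Log2 RMA value of each member on the 16 culture arrays, with 1 point per array labelled by its replicate number, horizontal lines at the culture means (n = 4) and a grey band over the range of the array medians (5.25 to 5.31). Gfap and Aqp4 spread widely in the neuronal and oligodendrocyte cultures, whereas Aldh1a1 and Fgfr3 set every astrocyte array above every other array.

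Aqp4 had the widest range of the members. Its main probe set (1372190_at) read 12.67, 12.28, 12.29 and 9.97 in the astrocyte replicates, and 7.33, 8.87, 10.51 and 10.23 in the neuronal ones. The oligodendrocyte replicates read 10.66, 7.01, 5.17 and 5.47, and the microglial ones 3.75, 3.40, 3.89 and 3.51. All microglial values lay below the array median, and oligodendrocyte replicate 1 lay above astrocyte replicate 4. The astrocyte mean of 11.80 ± 1.24 (SD, n = 4) exceeded the microglial mean of 3.64 ± 0.22 by 8.17 ± 1.01 (limma, adjusted p 1.06e-05) and the oligodendrocyte mean of 7.08 ± 2.52 by 4.73 ± 1.01 (adjusted p 0.00166). In linear terms these are at least 287-fold, since the microglial level is near background, and 26.5-fold.
Against the neuronal mean of 9.24 ± 1.46 the difference was 2.57 ± 1.01 and just missed the test (adjusted p 0.0505). The alternatives moved this adjusted p between 0.00107 and 0.364. Without astrocyte replicate 4 it was 3.18 and passed (adjusted p 0.0197), and without oligodendrocyte replicate 1, which widens the shared estimate of spread, 2.57 passed as well (adjusted p 0.00663). Leaving out oligodendrocyte replicate 3 or 4, or neuron replicate 3 or 4, also brought it under the threshold (adjusted p 0.0409, 0.0475, 0.038 and 0.0477). Aqp4 was higher in neurons than in microglia by 5.60 ± 1.01 (adjusted p 0.000221) and in oligodendrocyte cultures than in microglia by 3.44 ± 1.01 (adjusted p 0.0194), a call lost when its probe sets were averaged (1.70, adjusted p 0.074). The difference of 2.16 ± 1.01 between neurons and oligodendrocytes did not pass (adjusted p 0.106), but without oligodendrocyte replicate 1 it was 3.36 and passed (adjusted p 0.00201), as did 2.80 without neuron replicate 1 (adjusted p 0.0448).

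The 3 probe sets annotated to Aqp4 did not run together. Probe set 1368981_at followed the main one at lower values, with 10.64, 9.22, 9.40 and 5.72 in astrocytes and 3.76, 5.53, 6.94 and 6.40 in neurons. It read 7.22, 3.86, 3.76 and 4.33 in oligodendrocyte cultures and 3.50 to 4.22 in microglia. Its difference of 3.09 ± 0.96 between astrocytes and neurons passed (limma, adjusted p 0.0155), although it was lost without neuron replicate 1 (2.46, adjusted p 0.0594) or astrocyte replicate 1 (2.46, adjusted p 0.0571). Probe set 1387397_at ran the other way. It read 7.49, 6.81, 6.89 and 7.59 in neurons against 3.61, 3.96, 4.28 and 4.33 in astrocytes. Oligodendrocyte replicate 1 read 5.01, and the other oligodendrocyte and all microglial arrays lay between 3.31 and 3.70. Every neuronal array was thus above every array of the other cultures. The astrocyte minus neuron difference was -3.15 ± 0.28 (adjusted p 1.66e-07), and neurons were higher by 3.21 ± 0.28 against oligodendrocytes (adjusted p 1.64e-07) and 3.83 ± 0.28 against microglia (adjusted p 1.51e-08). In the mixtures it moved with the neuronal fraction as well, from 6.53 in NA1 to 7.21 in NA3 in the first blend and from 5.32 to 7.23 in the second. What sequence its probes match was not analysed here, so statements on Aqp4 rest on the main probe set.

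**Figure D2:**
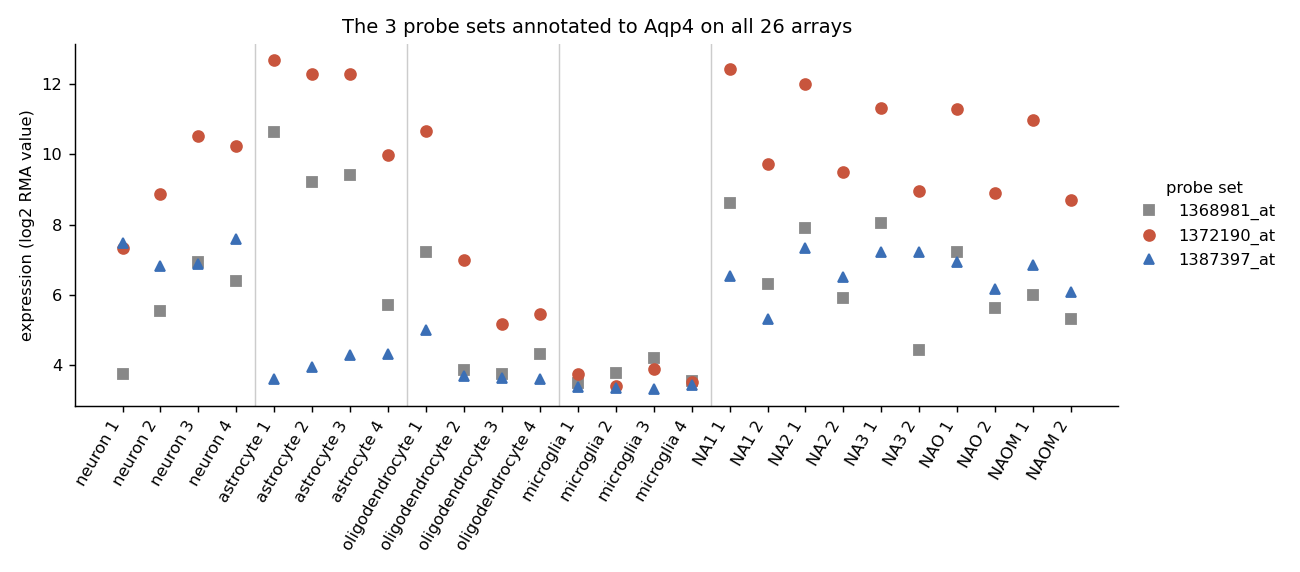
Log2 RMA value of the 3 probe sets annotated to Aqp4 on all 26 arrays, with 1 point per array and vertical lines between the cultures and the mixtures. Among the cultures, probe sets 1372190_at and 1368981_at are highest in astrocyte replicates 1 to 3, whereas 1387397_at lies between 6.81 and 7.59 in the neuronal cultures and at or below 5.01 in the others.

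Among the enzymes, Aldh1l1 separated astrocytes from each other culture. It read 8.40, 7.91, 7.96 and 7.06 in the astrocyte replicates and 4.96, 5.18, 6.54 and 6.11 in the neuronal ones. The oligodendrocyte replicates read 5.94, 4.68, 4.81 and 4.82, and the microglial ones 4.42, 4.61, 4.70 and 4.27. The lowest astrocyte array lay above the highest array of the other cultures, and only neuron replicates 3 and 4 and oligodendrocyte replicate 1 lay above the array median outside the astrocytes. The astrocyte mean of 7.83 ± 0.56 (SD, n = 4) exceeded the neuronal mean of 5.70 ± 0.75 by 2.13 ± 0.36 (limma, adjusted p 0.000141), a 4.39-fold difference. It exceeded the oligodendrocyte mean by 2.77 ± 0.36 (adjusted p 2.19e-05) and the microglial mean by 3.33 ± 0.36 (adjusted p 2.83e-06). Neurons were above microglia by 1.20 ± 0.36 (adjusted p 0.0116), a call that fell under the minimum difference without neuron replicate 3, at 0.92. Neurons and oligodendrocytes, at 0.64 ± 0.36 (adjusted p 0.191), and oligodendrocytes and microglia, at 0.56 ± 0.36 (adjusted p 0.277), were not separated.

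Acsbg1 did not mark the astrocyte cultures in these data. It read 10.03, 9.31, 9.37 and 7.59 in astrocytes, 6.74, 8.03, 9.58 and 9.15 in neurons, 8.76, 7.37, 7.85 and 7.09 in oligodendrocyte cultures and 7.75, 7.52, 8.22 and 7.56 in microglia. All 16 values lay above the array median and every pair of cultures overlapped. Neuron replicate 3 was higher than astrocyte replicates 2 and 3, and astrocyte replicate 4 was lower than neuron replicate 2. The astrocyte mean of 9.07 ± 1.04 (SD, n = 4) was 0.70 ± 0.58 above the neuronal one (limma, adjusted p 0.384), 1.30 ± 0.58 above the oligodendrocyte one (adjusted p 0.103) and 1.31 ± 0.58 above the microglial one (adjusted p 0.0902). Without astrocyte replicate 4 the last pair passed, at 1.80 (adjusted p 0.017) and 1.81 (adjusted p 0.0153), and the neuronal one was 1.19 and did not, with adjusted p values between 0.0859 and 0.867 over all alternatives. The microglial difference also passed without neuron replicate 1 (adjusted p 0.0466).

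Aldh1a1 had the sharpest separation. The astrocyte replicates read 9.87, 10.65, 10.43 and 10.50 and the neuronal ones 4.36, 4.26, 6.26 and 6.49. The oligodendrocyte replicates read 4.11, 3.45, 4.02 and 3.59, and the microglial ones 3.80, 3.64, 3.98 and 3.62. Astrocyte replicate 4 was within the range of the other astrocyte arrays, and oligodendrocyte replicate 1 stayed below the array median. The astrocyte mean of 10.36 ± 0.34 (SD, n = 4) exceeded the neuronal mean of 5.34 ± 1.20 by 5.02 ± 0.42 (limma, adjusted p 7.36e-08). That is at least 32.4-fold, because neuron replicates 1 and 2 lay below the array median. The astrocyte mean exceeded the oligodendrocyte mean by 6.57 ± 0.42 (limma, adjusted p 1.39e-08) and the microglial mean by 6.60 ± 0.42 (adjusted p 8.31e-09). These are at least 94.8-fold and 97.1-fold because both lie near background. All neuronal arrays lay above all oligodendrocyte and microglial arrays. The mean differences were 1.55 ± 0.42 (limma, adjusted p 0.00654) and 1.58 ± 0.42 (adjusted p 0.00476). Near background, neuron replicates 1 and 2 at 4.36 and 4.26 lay close to the 4.11 of oligodendrocyte replicate 1. Oligodendrocyte and microglial cultures differed by 0.03 ± 0.42 (adjusted p 0.965), with both near background.

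The receptor gene Fgfr3 was the other member whose astrocyte arrays stood well clear of all others. Its main probe set (1384056_at) read 10.40, 10.43, 10.48 and 11.50 in astrocytes and 5.11, 5.39, 6.84 and 6.56 in neurons. It read 7.29, 6.60, 7.31 and 6.87 in oligodendrocyte cultures and 6.23, 5.30, 5.23 and 4.79 in microglia. Astrocyte replicate 4 was the highest of all arrays, and the oligodendrocyte cultures lay above all microglial arrays. The astrocyte mean of 10.71 ± 0.53 (SD, n = 4) exceeded the neuronal mean of 5.98 ± 0.86 by 4.73 ± 0.39 (limma, adjusted p 7.64e-08), the oligodendrocyte mean of 7.02 ± 0.34 by 3.69 ± 0.39 (adjusted p 2.89e-06) and the microglial mean of 5.39 ± 0.61 by 5.32 ± 0.39 (adjusted p 4.84e-08). The folds are 26.6, 12.9 and 39.9. Neuron replicate 1 and microglia replicates 3 and 4 lay below the array median, so the neuronal and microglial folds may be understated. Probe set 1369373_at read 7.56 to 8.20 in astrocytes and 4.36 to 4.85 in neurons, a difference of 3.21 ± 0.17 (adjusted p 6.2e-10).
Fgfr3 was the only member higher in oligodendrocyte cultures than in neurons by the test, with a neuron minus oligodendrocyte difference of -1.04 ± 0.39 (adjusted p 0.0452). That call was marginal and was lost without any one of neuron replicates 1 and 2 and oligodendrocyte replicates 1, 3 and 4, among others. Oligodendrocyte cultures exceeded microglia by 1.63 ± 0.39 (limma, adjusted p 0.00605), while neurons and microglia were not separated, at 0.59 ± 0.39 (adjusted p 0.23). Probe set 1369373_at read only 4.81 to 5.10 in oligodendrocyte cultures and 4.145 to 4.77 in microglia. With its neuronal values, all of these lay below the array median. Oligodendrocyte differences of this size therefore rest on the main probe set.

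Counted together, 3 of the 6 members (Aldh1l1, Aldh1a1 and Fgfr3) were higher in astrocytes than in neurons at an adjusted p under 0.05 and a log2 difference of at least 1, where 24.0% of all 31042 probe sets were called in either direction and 12.0% upward. Without astrocyte replicate 4 the count was 5 of 6. Against oligodendrocyte cultures 5 members were higher, all but Acsbg1, beside 15.9% of probe sets called and 8.04% upward. The same 5 were higher than in microglia, beside 16.2% called, 9.13% upward and 7.05% downward. None was called lower in astrocytes. The median difference over the members was 2.35 against neurons, 3.37 against oligodendrocytes and 5.34 against microglia, while the medians over all 14217 genes were 0.08, 0.02 and -0.04. Among the other cultures, 4 members were higher in neurons than in microglia (25.7% of probe sets called, 14.1% upward) and 3 in oligodendrocyte cultures than in microglia (10.6% called, 6.27% upward and 4.29% downward). Between neurons and oligodendrocytes, Aldh1a1 was higher in neurons and Fgfr3 lower (21.6% called, 11.0% upward and 10.6% downward). Arrays of astrocytes and neurons did not overlap for 3 members, against 42.8% of all probe sets, those of astrocytes and oligodendrocytes for 4, against 32.5%, and those of astrocytes and microglia for 5, against 34.9%. The first of these shares is close to the background. The other pairs of cultures did not overlap for 1 member between neurons and oligodendrocytes (41.7% of probe sets), 4 between neurons and microglia (49.0%) and 3 between oligodendrocytes and microglia (27.8%).

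To ask how much astrocyte signal lay in the other cultures, each member's linear value was expressed as a percent of its mean over the 4 astrocyte arrays. This percent compares RNA levels on arrays and includes the array's background. The astrocyte mean includes replicate 4, where Aqp4, Acsbg1, Gfap and Aldh1l1 stood at 18.2, 24.6, 36.6 and 48.2% of replicates 1 to 3. Fgfr3 stood at 209% there. Compared with a reference of replicates 1 to 3, the percents of the former genes are therefore raised and that of Fgfr3 is lowered. In bulk RNA, fewer astrocytes and less of a transcript per cell cannot be told apart. The median of the 6 members was 8.31, 12.9, 36.0 and 28.2% in neuron replicates 1 to 4, a mean of 21.3 ± 13.0% (SD, n = 4). In oligodendrocyte replicates 1 to 4 it was 31.2, 8.08, 6.75 and 6.02%, a mean of 13.0 ± 12.1%, and without replicate 1 that mean was 6.95%. Microglial arrays lay between 1.65 and 3.70%, a mean of 2.56 ± 0.90%, which was 0.72% after subtracting each gene's lowest value and 4.32% with the mean of all its probe sets. The neuronal signal was highest in replicates 3 and 4, which exceeded replicates 1 and 2 for each of the 6 members, and the oligodendrocyte signal lay mainly in replicate 1.

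The members gave very different answers in the same array. In neurons Acsbg1 stood at 67.2 ± 46.9% of its astrocyte level (SD, n = 4) and Gfap at 38.7 ± 22.0%, while Aldh1l1 stood at 23.9 ± 12.1% and Aqp4 at 18.8 ± 13.9%. Fgfr3 and Aldh1a1 stood at only 4.04 ± 2.23% and 3.84 ± 2.76%. In neuron replicates 3 and 4, where all 6 members lay above the array median, the highest percent was 21.2 and 16.8 times the lowest. In neuron replicates 1 and 2 it was at least 11.0 and 28.9 times, and in the oligodendrocyte arrays at least 24.0 to 53.3 times, since the lowest member there lay below the array median. In oligodendrocyte replicate 1 Acsbg1 reached 68.5%, Gfap 37.4%, Aqp4 36.9% and Aldh1l1 25.5% of the astrocyte mean, against 8.85% for Fgfr3 and 1.29% for Aldh1a1. In the other 3 oligodendrocyte arrays Aqp4 lay between 0.82 and 2.93% and Gfap between 4.53 and 16.3%. The percent therefore depended on the member read, and its size also on the astrocyte arrays in the reference. The share of astrocyte cells in these cultures was not tested.

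**Figure D3:**
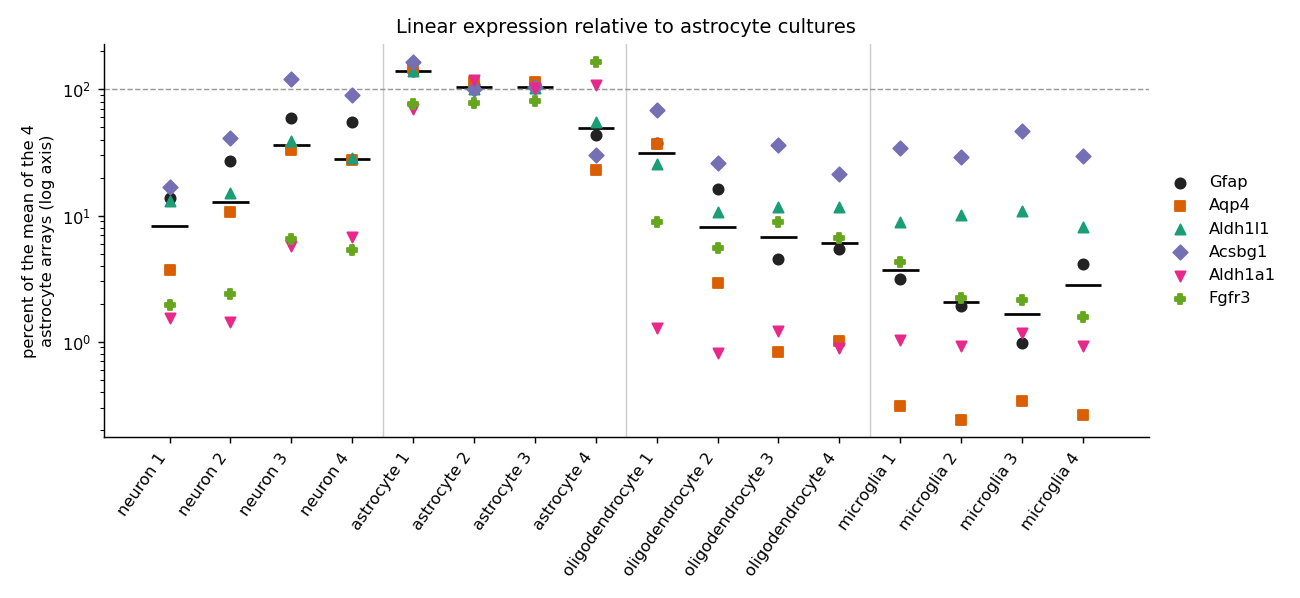
Linear value of each member as a percent of its mean over the 4 astrocyte arrays (log axis), with 1 symbol per member on each of the 16 culture arrays and a black line at the median of the 6 members. The median runs from 8.31 to 36.0% in the neuronal arrays and reaches 31.2% in oligodendrocyte replicate 1, and Aldh1a1 stays at or below 6.71% in every array other than the astrocytes.

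Marker lists of other cells are given beside these differences. The neuronal list averaged 10.46 and 10.49 in neuron replicates 1 and 2 and 10.14 and 10.21 in replicates 3 and 4, so it was slightly lower where the members were higher. The oligodendrocyte list was also lower in replicates 3 and 4, at 4.904 and 4.923 against 5.159 and 5.101 in replicates 1 and 2. The mean of the oligodendrocyte precursor list went the same way as the members, at 4.78, 5.09, 5.76 and 5.34 in replicates 1 to 4. Within it Olig1 read 6.85, 8.32, 9.83 and 9.23. In replicates 1, 2 and 4 it was the only precursor gene above the array median, so this list rests largely on Olig1. The fibroblast and meningeal list also went the way of the members, at 4.96, 4.62, 5.17 and 5.24. So did the pericyte and smooth muscle list, at 5.50, 5.30, 5.77 and 5.78. At most 4 of the 10 fibroblast and meningeal genes, and 2 of the 5 precursor genes, lay above the array median in a neuronal array. The microglial list lay between 4.52 and 4.73. Of the oligodendrocyte arrays, replicate 1 had the highest oligodendrocyte list, at 11.47 against 11.02, 9.09 and 10.33 in replicates 2 to 4, and its neuronal list was 6.68 within a range of 6.12 to 6.72. Its microglial list was the lowest, at 8.08 against 9.0, 9.21 and 9.11. Its pericyte and smooth muscle list was the highest, at 6.46 against 6.02, 5.23 and 5.93. Within that list Tagln, a smooth muscle actin-binding protein, read 9.76 against 6.17, 6.01 and 7.93, and Acta2, Cnn1 and Rgs5 were also highest there. Mcam, Cspg4, Myh11 and Des were lower than in replicate 2, at 9.56, 5.51, 5.65 and 4.31 against 10.08, 6.14, 5.79 and 4.39. Tagln also read 13.03 to 13.65 on the astrocyte arrays. The fibroblast and meningeal list of oligodendrocyte replicate 1 was 5.61 against 4.66, 4.67 and 5.78. The part of other cells in the members' levels was not tested.

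In astrocyte replicate 4 all 6 members lay above the array median, but 4 lay below and 1 above the other astrocyte arrays. Relative to the mean of replicates 1 to 3 on the linear scale, Aqp4 stood at 18.2%, Acsbg1 at 24.6%, Gfap at 36.6% and Aldh1l1 at 48.2%, while Aldh1a1 stood at 111% and Fgfr3 at 209%. On the log2 scale Aqp4 lay 2.45 below the mean of the other 3, at 9.97 against 12.42 ± 0.22 (SD, n = 3), and Acsbg1 1.98 below, at 7.59 against 9.57 ± 0.40. Gfap lay 1.44 below, at 12.04 against 13.48 ± 0.21, and Aldh1l1 1.03 below, at 7.06 against 8.09 ± 0.27. Fgfr3 lay 1.06 above, at 11.50 against 10.44 ± 0.04, and its other probe set 0.46 above. The median over the 6 members was 42.4%. In all, 4 of 6 members were lower by at least 1, as were 5.21% of all probe sets, and 1 was higher by at least 1, as were 3.16%. These are comparisons of 1 array with 3, and no test was made.
Markers of other cells differed in the same array. The fibroblast and meningeal list of 10 genes averaged 9.28 in astrocyte replicate 4 and 6.64, 6.79 and 6.86 in replicates 1 to 3, with Col1a1 at 13.0 against 6.8 to 7.7 and Postn at 12.5 against 3.9 to 5.1. Dcn and Lum, defining fibroblast genes of that list, lay at or below 3.5 on all 4 arrays. Of the 10 genes, 7 lay above the array median in replicate 4 and 6 in each of replicates 1 to 3. The pericyte and smooth muscle list averaged 8.59 against 7.24 to 7.76. The ependymal list averaged 4.85 against 6.62 to 7.63, with 1 of 6 genes above the array median against all 6, and the microglial list 4.51 against 4.65 to 6.05. The neuronal list, at 5.35 against 4.89 to 4.96, stayed near the array median. The part of these other cells in the members' levels was not tested.

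**Figure D4:**
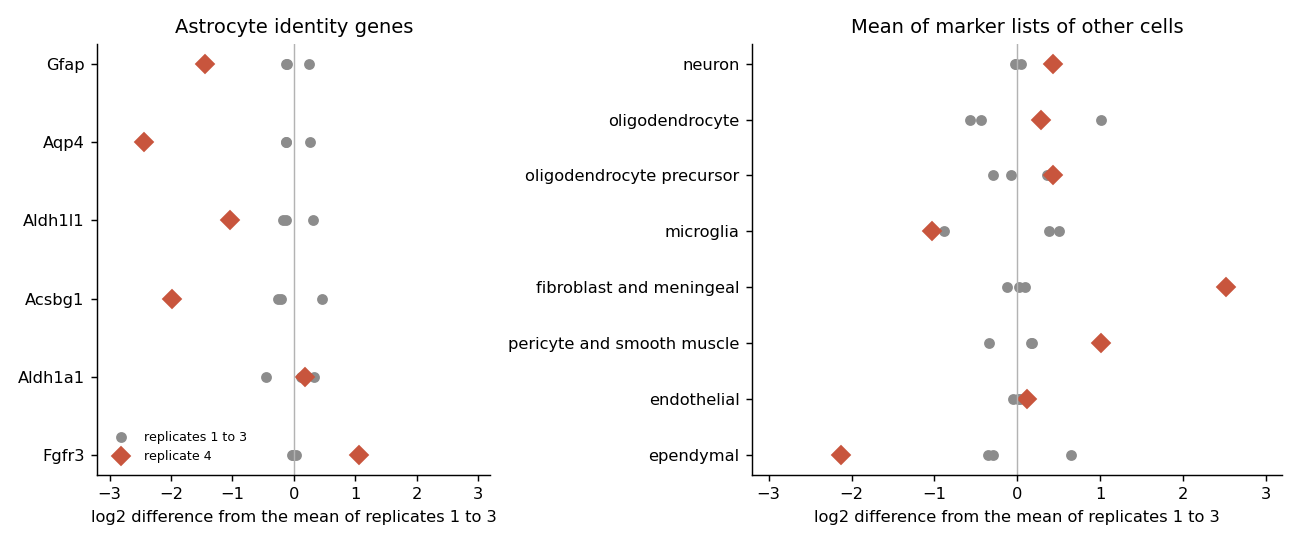
Log2 difference of each astrocyte array from the mean of astrocyte replicates 1 to 3, with replicate 4 as red diamonds and replicates 1 to 3 as grey circles, for the 6 members on the left and for the mean of marker lists of other cells on the right. In replicate 4 Aqp4, Acsbg1, Gfap and Aldh1l1 lie below and Fgfr3 above the other 3 arrays, and the fibroblast and meningeal list lies highest of the lists.

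The mixtures set the members against known shares of astrocytic RNA. Every blend reuses RNA of culture replicates, so the blends add no biological replicates and are not independent of the culture values. The p-values for the mixtures below measure the spread between blended arrays. Because the blends numbered 1 and 2 had different parents, the members ran over different ranges. In the blends made with astrocyte replicate 1, NA1, NA2 and NA3 read 12.44, 12.01 and 11.33 for Aqp4 and 13.65, 13.46 and 12.99 for Gfap. With astrocyte replicate 4 they read 9.73, 9.48 and 8.94 for Aqp4 and 11.89, 11.84 and 11.63 for Gfap. Aldh1a1 read 9.30, 8.79 and 7.73 in the first set and 10.09, 9.40 and 8.32 in the second, and Fgfr3 10.01, 9.43 and 8.21 against 11.06, 10.53 and 9.56. Aldh1l1 read 8.22, 7.41 and 6.38 against 6.39, 5.91 and 5.88. Acsbg1 read 9.60, 9.14 and 8.31 in the first set and 7.78, 7.81 and 8.00 in the second, so the second set did not decline. Its parents were 3.29 apart (astrocyte above neuron) in the first set and 0.44 apart in the second, with neuron replicate 2 above astrocyte replicate 4.

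Across NA1 to NA3, the slope of the log2 value on the neuronal RNA fraction was called for 1 member, Aldh1a1, at -3.33 per unit fraction (limma, adjusted p 0.026), where 14.3% of probe sets were called, 9.32% with a positive and 5.01% with a negative slope. With the blend number as a block, which the shared parents call for, 4 members fell, where 24.2% of probe sets were called, 12.5% positive and 11.7% negative. These were Aldh1a1 at -3.33 ± 0.30 (adjusted p 0.00101), Fgfr3 at -3.29 ± 0.33 (adjusted p 0.00107), Aldh1l1 at -2.36 ± 0.57 (adjusted p 0.0251) and Aqp4 at -1.90 ± 0.26 (adjusted p 0.00265). Gfap at -0.91 ± 0.27 (adjusted p 0.0501) and Acsbg1 at -1.08 ± 0.62 (adjusted p 0.293) did not pass. Without the block the call for Aldh1a1 was lost when NA1 replicate 2, NA2 replicate 1 or either NA3 array was left out. The opposed Aqp4 probe set 1387397_at rose, at 2.59 ± 0.61 with the block (adjusted p 0.0226).
When oligodendrocytic RNA took the place of part of the astrocytic RNA (NAO against NA2), no member was called without the block (1.10% of probe sets called, 0.197% downward) and 3 fell with it (3.47% called, 1.85% upward and 1.62% downward). These were Aldh1a1 at -1.16 ± 0.11 (limma, adjusted p 0.00168), Fgfr3 at -0.92 ± 0.12 (adjusted p 0.00663) and Aqp4 at -0.65 ± 0.12 (adjusted p 0.031). A drop from 0.5 to 0.25 of astrocytic RNA would give -1 on the log2 scale only if the other RNAs held none of the transcript. For Aqp4 the fraction-weighted parent arrays gave 11.71 in NA2 and 10.77 in NAO for the first blend. For the second blend they gave 9.52 and 8.95. From NAO to NAOM microglial RNA entered at 0.1, and astrocytic and oligodendrocytic RNA each fell from 0.25 to 0.2. Between these mixtures no member was called at this threshold with or without the block, beside 0.119% and 0.0419% of probe sets. The median member difference there was -0.29, with the lower astrocytic fraction in NAOM.

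Each mixture value was also set against the fraction-weighted sum of the linear values of its own parent arrays. Over the 60 pairs of member and mixture, the observed value minus the expected one had a median of -0.04 on the log2 scale and ranged from -0.49 to 1.03. Fgfr3 had a median of -0.01, Acsbg1 of -0.05 and Aqp4 of 0.07, while Aldh1a1 and Aldh1l1 came out lower, at -0.23 and -0.31. Gfap exceeded its expectation by up to 1.03, in NAOM replicate 1, which read 12.89 against an expected 11.86. The excess of Gfap in the first blends was 0.29 in NA1, 0.60 in NA2, 0.89 in NA3, 0.97 in NAO and 1.03 in NAOM, whereas in the second it stayed between -0.01 and 0.14. The main Aqp4 probe set in the first blends was likewise above by 0.17 to 0.55, and in the second between -0.29 and -0.03. Probe set 1368981_at went the other way in the first blends, from -2.36 to -0.62, and in the second lay between -1.15 and 0.64. Probe set 1387397_at was above by 0.10 to 0.775 in the first blends. The second Fgfr3 probe set, 1369373_at, ran from -0.92 to 0.66, so these readings hold for the main probe sets. The median over all genes on these arrays lay between -0.16 and -0.07. The cause of the excess was not tested.

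**Figure D5:**
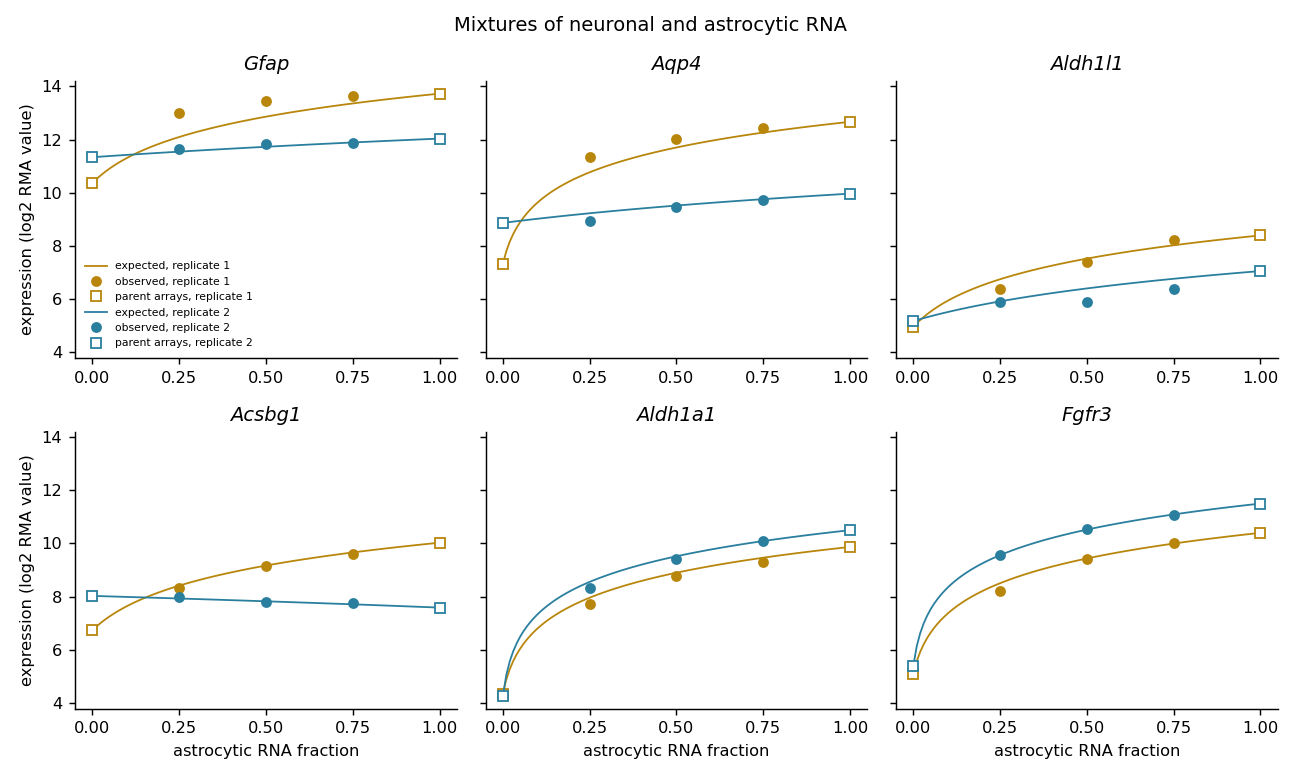
Log2 RMA value of each member against the astrocytic RNA fraction in the mixtures NA3, NA2 and NA1 (0.25, 0.5 and 0.75), with filled circles for the observed arrays, open squares for the parent cultures at 0 and 1, and lines for the value expected from the parents; colours give the blends numbered 1 and 2. For the main probe sets, which are the ones shown, Aldh1a1, Fgfr3 and Acsbg1 lie close to the lines. Gfap and Aqp4 of the first blends lie above them.

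Genes related to the members by function were counted from lists, in the order astrocytes against neurons, oligodendrocytes and microglia, with the percent of all probe sets called as given above. Of 24 other astrocyte genes measured, 14, 12 and 16 were higher in astrocytes and 1, 0 and 1 lower, with median differences of 1.65, 1.13 and 2.25. In this list 9 genes passed against all 3 cultures. Mlc1, a membrane protein of astrocyte endfeet, was higher by 3.60, 5.95 and 7.70, Clu, the secreted chaperone clusterin, by 2.86, 4.68 and 7.14, and Id3, an inhibitor of helix-loop-helix factors, by 7.36, 3.32 and 2.99 (limma, each adjusted p at most 0.00124). Apoe, the main lipoprotein of glia, was lower in astrocytes than in microglia, at -2.28 ± 0.57 (adjusted p 0.00524). The glutamate transporter Slc1a2 and the connexin gene Gjb6, typical of mature astrocytes, had means below the array median in every culture, 4.65 and 3.29 in astrocytes; these 3 genes were chosen after their values were seen. Of the 5 filament genes around Gfap, 4, 3 and 3 were higher and 0 lower, with Nes (nestin) higher by 2.94, 2.70 and 2.78, Vim (vimentin) by 3.77, 2.98 and 2.33 and Synm (synemin) by 2.30, 2.91 and 2.87.

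Lists around the other members were counted in the same way. Of 6 genes for aquaporins and the dystrophin complex that holds Aqp4, 2, 2 and 3 were higher, and Aqp9, a channel for water and glycerol, passed against all 3 cultures at 1.36, 1.28 and 1.16. Of 6 folate enzymes none was higher, and Shmt1, the cytosolic serine hydroxymethyltransferase, was lower than in oligodendrocytes (-1.39) and in microglia (-1.84). The 7 acyl-CoA synthetases around Acsbg1 had 1 higher in each contrast and 4, 3 and 3 lower. Acsl4, which prefers arachidonate, was lower, at -3.99, -3.38 and -3.07. Of 12 retinoid genes 3, 3 and 2 were higher and 0, 0 and 1 lower, and the retinoic acid receptors Rarb, at 1.75, 3.67 and 3.89, and Rarg, at 2.19, 1.90 and 1.90, passed against all 3 cultures. Of 12 FGF pathway genes 6, 2 and 3 were higher and 2, 1 and 1 lower. The ligand gene Fgf1 was higher by 2.34, 3.08 and 3.16 and the transcription factor gene Etv4, an FGF target, by 1.72, 1.51 and 1.48. Spry1, a feedback inhibitor of FGF signalling, was lower, at -1.82, -1.82 and -1.45, and the ligand gene Fgf9 was lower than in neurons, at -4.42. In astrocyte replicate 4 Fgf1 read 10.27, beside the high Fgfr3 of that array. The mean over all 4 astrocyte arrays, replicate 4 included, was 7.80, so this array also raises the Fgf1 differences above. Acsl4, Shmt1, Spry1 and Fgf9 were chosen after their values were seen.

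The members themselves were not interchangeable in profile. Over the 16 culture arrays, which include replicates of 4 cultures and are not independent of them, Pearson's r between members was highest for Gfap with Aqp4 (0.975) and Aldh1l1 with Aldh1a1 (0.945), and lowest for Acsbg1 with Fgfr3 (0.519). The genes of highest r with Gfap were Epas1 (0.972), S100b (0.948) and Mlc1 (0.947), and with Aqp4 they were Epas1 (0.984), Clu and Gja1 (both 0.972). Plat, Hey2 and Gsta4 were closest to Aldh1l1 (0.982, 0.982 and 0.979), and Gstt3, Slc1a3 and Mlf1 to Acsbg1 (0.871, 0.858 and 0.858). Lama5, Fam167a and Cdc42ep5 were closest to Aldh1a1 (0.98, 0.98 and 0.979), and C1qtnf5, Timp3 and Tead1 to Fgfr3 (0.979, 0.977 and 0.975). These values describe likeness over 16 arrays and carry no test.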

How the data were processed

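Gene expression was measured in 26 samples, 16 cultures and 10 mixtures. The deposited values are log2 expression values that the authors made with RMA (Robust Multi-array Average) in affy, per the submitters' processing notes. Versions and settings are not given in the sources used here. The table held 31099 probe sets, and 57 controls were left out. No filter on low values was used. Cultures and mixtures were fitted separately in R 4.3.3 with lmFit and eBayes of limma 3.58.1, with 1 mean per culture or mixture or a slope on the neuronal fraction. P-values were adjusted by Benjamini-Hochberg over the 31042 remaining probe sets. A culture difference was called at an adjusted p under 0.05 and a log2 difference of at least 1, a mixture difference at an adjusted p under 0.05.

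Symbols came from the platform annotation, in which 20826 probe sets carry 1 symbol. Percentages and expected mixtures use 2 to the power of the log2 value. Same-numbered mixtures share parents per the labels, and their residuals correlated with r from 0.381 to 0.873 over 20 pairs. Same-numbered cultures did not pair (r from -0.107 to 0.178 over 24 pairs, 5 above 0.1). Members, lists and tests were chosen with earlier results of these data known. The rule named the members, up to 3 genes of a list with the largest differences in all astrocyte contrasts, and the 3 genes most like each member. Alternatives covered normalization, dim probe sets, variance settings, array weights, other probe sets, fold minima, background subtraction and leaving out each replicate. Fits were tested on simulated data. Other tools were statmod 1.5.0, Python 3.11.15, numpy 2.4.6, pandas 2.3.3 and matplotlib 3.10.9.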

Additional observations from a re-analysis of the deposited data

Results flagged for a closer look

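Dixon's test was run on 40 groups of 4 values, and chance alone marks about 1 in 20. It marked 6, of which 4 concern oligodendrocyte replicate 1 and 2 concern astrocyte replicate 4. In oligodendrocyte replicate 1, Aldh1l1 read 5.94 with the next value at 4.82, and Aqp4 probe set 1368981_at read 7.22 with the next at 4.33. Aqp4 probe set 1387397_at, the one that is high in neurons, read 5.01 there with the next at 3.70. The median percent of the astrocyte level over the 6 members was 31.2% in that array and 8.08% in the next. In astrocyte replicate 4, the main Aqp4 probe set read 9.97 and the next lowest 12.28, while Fgfr3 read 11.50 and the next highest 10.48.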

How the results depend on the processing

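The number of members called higher in astrocytes than in neurons rose from 3 to 5 with array weights, without astrocyte replicate 4 and without astrocyte 4, oligodendrocyte 1 and microglia 4 together (chosen after seeing the data), and ranged from 3 to 5 with each replicate left out. Between neurons and oligodendrocytes the count of 2 was 1 with the replicate block, with quantile normalization of the cultures alone and in a fit of the compared cultures only, 0 with a minimum log2 difference of 2, and 1 to 3 with a replicate left out. Between neurons and microglia the count of 4 was 2 at that minimum. In the mixtures the replicate block raised the slope count from 1 to 4 and the NAO against NA2 count from 0 to 3. Leaving out an array, without the block, gave slope counts of 0 to 1. Apart from the counts named here, the block changed no count of members by over 1.5 times. Over all probe sets it raised the calls from 4447 to 7503 for the slope and from 341 to 1077 for NAO against NA2. For NAOM against NAO it raised them from 13 to 37.

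The microglial percent of 2.56 was 0.72 after subtracting each gene's lowest value and 4.32 with the mean of all probe sets. The median of observed minus expected mixture values, -0.04, was -0.32 with culture means as parents, 0.79 for log2 mixing and -0.14 after median centring. Signs turned for differences that were not called. Acsbg1 between oligodendrocytes and microglia was -0.024 after median centring, -0.091 after quantile normalization, -0.39 without the 3 arrays together and -0.33 to 0.23 with a replicate left out. Aldh1a1 there was -0.12 without the 3 arrays and -0.072 to 0.147 with a replicate left out. With a mixture array left out and no block, slopes ranged from -2.48 to 0.53 for Gfap and from -4.30 to 0.34 for Aqp4. Those of Acsbg1 ran from -2.66 to 0.45, and the Aqp4 difference of NAO from NA2 from -1.91 to 0.62. Such fits weight the blends of different parents unequally, so the difference between parents enters these ranges. Within the first and second blends, NA3 minus NA1 was -0.66 and -0.26 for Gfap and -1.11 and -0.79 for Aqp4. For Acsbg1 it was -1.29 and 0.21. Of 1101 member values compared with an alternative, 1018 kept direction and call, 35 gained a call, 29 lost it and 19 changed sign. Apart from the array left out or the setting named, the cause was not tested. Levels below the array median leave differences between the lower cultures unresolved.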
